A study of Mus musculus with 62 samples.

Results

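The 10 genes described here encode the channels that release calcium from the endoplasmic or sarcoplasmic reticulum and 4 proteins that act with them: the ryanodine receptors Ryr1, Ryr2 and Ryr3, the inositol trisphosphate (IP3) receptors Itpr1, Itpr2 and Itpr3, the receptor-binding proteins Fkbp1a and Fkbp1b, the calcium pump Atp2a2 and the calcium sensor Stim2. They were chosen by their mouse Entrez identifiers because ryanodine receptors are known targets of non-dioxin-like polychlorinated biphenyls (PCBs), and they are 10 of the 18821 genes listed in at least 1 of 3 RNA sequencing count tables. All 10 were listed in each table. The tables hold 62 libraries from female C57BL/6 mice, an inbred laboratory strain, that received the MARBLES mixture of PCBs by mouth at 0.1, 1 or 6 mg/kg, or vehicle alone (0 mg/kg). The prefrontal cortex and the striatum were each represented by 4 vehicle libraries and by 5, 6 and 6 libraries at the rising doses, and the liver by 4 vehicle libraries and by 4, 6 and 6. No group carried a genetic change in its labels, and the age of the mice and the composition of the vehicle were not given in the sources used here. The comparisons asked whether transcripts of this calcium release system differed from vehicle at each dose, whether they changed with dose, and how they differed between tissues.

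Store calcium release works through channels in the membrane of the reticulum. Calcium entering the cytosol, or a direct contact with a voltage sensor in muscle, opens ryanodine receptors, and IP3 produced by phospholipase C opens IP3 receptors. Small immunophilins of the FKBP12 family bind to ryanodine receptors and stabilise their closed state, SERCA pumps such as the product of Atp2a2 refill the store, and STIM proteins sense its filling and open entry channels in the plasma membrane. Non-dioxin-like PCBs are known to bind to the ryanodine receptor complex in brain and muscle membranes and to keep the channel open. That action is on the protein, and the values here are transcript levels.

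In the RefSeq annotation of GRCm38.p6, Ryr1 (Entrez 20190) spans chr7:29003340-29125179, Ryr2 (Entrez 20191) spans chr13:11553099-12106945, Ryr3 (Entrez 20192) spans chr2:112631354-113217405. Among the IP3 receptors, Itpr1 (Entrez 16438) spans chr6:108213083-108551116, Itpr2 (Entrez 16439) spans chr6:146108299-146502258, Itpr3 (Entrez 16440) spans chr17:27057002-27122223. For the proteins that act with the channels, Fkbp1a (Entrez 14225) spans chr2:151542483-151561691, Fkbp1b (Entrez 14226) spans chr12:4833176-4841573, Atp2a2 (Entrez 11938) spans chr5:122453513-122502225, Stim2 (Entrez 116873) spans chr5:53998523-54121057.

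Levels are given as CPM, counts relative to the library total, scaled by edgeR's trimmed mean of M values, and, where genes are compared with each other, as CPM per kb of the longest annotated transcript. Library totals ranged from 7381179 to 10203247 counts in the liver, from 8722232 to 12135200 for prefrontal cortex and from 8283032 to 12019651 for striatum. Nothing in the labels beyond the animal number in the title says that libraries came from separate mice, so p-values measure the spread between these libraries. In bulk tissue, fewer cells of a type and less RNA per cell cannot be told apart. Hepatocyte markers summed to 77081 to 171810 CPM in the liver. Markers of striatal projection neurons summed to 2618 to 6278 CPM in the striatum, but also to 888 to 2870 CPM in the prefrontal cortex libraries. Markers of cortical excitatory neurons summed to 1374 to 2362 CPM in the prefrontal cortex and to 108 to 1698 CPM in the striatum, so both brain dissections held transcripts typical of the other region in varying amounts. Choroid plexus markers reached 4281 CPM in the striatum and no more than 38.3 CPM in the prefrontal cortex.

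Among vehicle mice, 3 of the 4 genes lower in the striatum of vehicle mice had a start site in the RefSeq promoter table of GRCm38.p6. Their 250 bases before the start are shown because these genes differed in the same direction. Capitals mark GC boxes, the letters GGGCGG or, on the other strand, CCGCCC.
Ryr2, chr13:12106946-12107195, minus strand: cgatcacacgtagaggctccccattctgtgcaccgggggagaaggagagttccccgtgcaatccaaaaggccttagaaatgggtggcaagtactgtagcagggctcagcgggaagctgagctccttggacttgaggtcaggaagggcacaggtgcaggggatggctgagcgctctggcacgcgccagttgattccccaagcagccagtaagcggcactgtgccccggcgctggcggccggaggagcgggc
Fkbp1b, chr12:4841574-4841823, minus strand: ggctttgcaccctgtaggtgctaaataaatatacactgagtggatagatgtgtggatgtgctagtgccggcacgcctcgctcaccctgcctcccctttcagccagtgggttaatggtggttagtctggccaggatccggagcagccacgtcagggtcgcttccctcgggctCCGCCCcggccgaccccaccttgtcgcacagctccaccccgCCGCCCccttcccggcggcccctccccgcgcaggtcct
Stim2, chr5:53998273-53998522, plus strand: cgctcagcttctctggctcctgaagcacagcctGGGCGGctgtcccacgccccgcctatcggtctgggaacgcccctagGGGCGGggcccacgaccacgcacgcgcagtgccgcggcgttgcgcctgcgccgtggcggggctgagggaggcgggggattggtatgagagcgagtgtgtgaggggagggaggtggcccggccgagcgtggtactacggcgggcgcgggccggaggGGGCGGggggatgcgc
Ryr2 had no GC box in this window, Fkbp1b had 2 and Stim2 had 3. A GC box was present in 32.7% of the 32851 promoters of the table. The GC content was 63.2% for Ryr2, 64.8% for Fkbp1b and 74.8% for Stim2, beside a median of 52.4% over all promoters. The 3 windows held 14, 17 and 30 CpG dinucleotides, beside a median of 6. Among the other genes with an entry, the GC content was 54.8% for Ryr1, 58.4% for Fkbp1a, 74.4% for Itpr2 and 72.0% for Itpr3. Their windows held 6, 18, 22 and 25 CpG dinucleotides, so high values were not particular to the 3 genes shown. A matching stretch of letters is a description of the sequence and says nothing of which factors bind. Of the 10 genes, 7 matched an entry of the table.

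Brain tissue expressed all 10 genes, whereas the liver libraries held 6 of them above trace level. Per kb of transcript, Fkbp1a, which encodes FKBP12, was the most abundant in the prefrontal cortex, at 256 ± 21.3 CPM per kb (SD, n = 21). Atp2a2, which encodes SERCA2, followed at 197 ± 23.3 and Itpr1, the main neuronal IP3 receptor, at 79.0 ± 13.3 CPM per kb. Fkbp1b, which encodes FKBP12.6, a close relative of FKBP12, stood at 18.7 ± 4.11 CPM per kb and Stim2 at 16.8 ± 1.70, a pair whose ranges overlapped. Among the ryanodine receptors, Ryr2, the isoform of heart muscle and of most brain regions, led with 10.1 ± 2.40 CPM per kb. Ryr3, a widespread isoform of low abundance, stood at 2.77 ± 0.955 and Ryr1, the isoform of skeletal muscle, at 1.69 ± 0.515 CPM per kb, and their ranges overlapped. Itpr2 stood at 1.55 ± 0.317 CPM per kb and Itpr3 was the lowest at 0.658 ± 0.141.

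In the striatum the order was the same at the top, with Fkbp1a at 278 ± 30.3, Atp2a2 at 178 ± 23.1 and Itpr1 at 72.8 ± 16.4 CPM per kb (SD, n = 21). Stim2 stood at 13.1 ± 1.88 and Fkbp1b at 11.4 ± 3.36 CPM per kb. Ryr2 stood at 6.36 ± 1.46, Ryr3 at 4.82 ± 1.09 and Ryr1 at 2.796 ± 0.807 CPM per kb, and the ranges of neighbouring isoforms overlapped. Itpr2 stood at 1.86 ± 0.277 and Itpr3 at 0.784 ± 0.171 CPM per kb. Reads from Fkbp1a can be shared with near-identical copies, so its level is uncertain to that extent.

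Liver levels were lower for most genes. Fkbp1a stood at 28.4 ± 5.65 and Atp2a2 at 21.2 ± 4.998 CPM per kb (SD, n = 20). Stim2 stood at 3.65 ± 0.775, Itpr1 at 3.17 ± 0.883, Itpr2 at 2.33 ± 0.402 and Itpr3 at 0.300 ± 0.109 CPM per kb. Itpr2 was the exception among the channels, since its level in the liver was above its level of 1.55 CPM per kb in the prefrontal cortex, although the libraries of the tissues were scaled separately. The 3 ryanodine receptors and Fkbp1b had between 0 and 10 counts in each liver library and were not tested there.

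**Figure D1:**
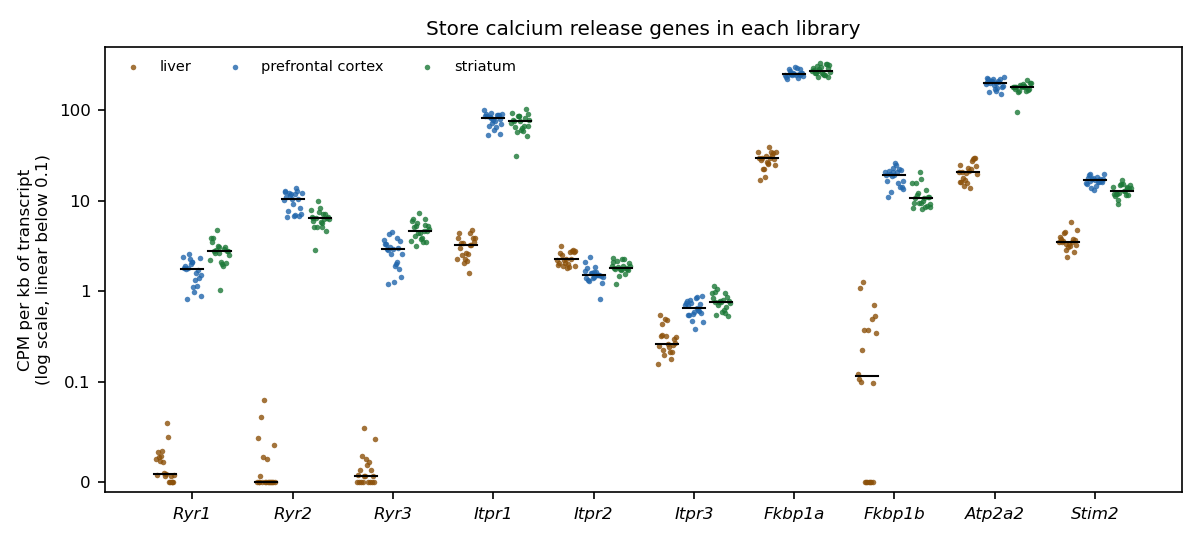
Level of each gene in each library, in CPM per kb of transcript on a log axis that is linear below 0.1, with liver, prefrontal cortex and striatum in separate colours; each point is a library and each black line a median. Fkbp1a, Atp2a2 and Itpr1 are the most abundant genes in both brain regions, and the 3 ryanodine receptors lie near 0 in the liver.

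The trace counts of ryanodine receptors in the liver were examined library by library. Ryr2 had 0 counts in 13 of 20 liver libraries, Ryr3 in 8 and Ryr1 in 5. A count of 0 allows up to 3 counts, which corresponds to a limit of 0.286 to 0.415 CPM over these libraries, for counting error alone. The most Ryr2 counts were 10, 8 and 7, in animal 50 at 1 mg/kg, animal 54 at 6 mg/kg and vehicle animal 7. The summed level of 5 neuronal transcripts (Snap25, Syt1, Nefl, Gad1 and Slc17a7) was 33.8, 24.1 and 41.5 CPM in those livers, within a range of 5.23 to 48.1 CPM over all 20. Across the 20 livers, the Ryr2 count and this sum had a Pearson r of 0.788 and a Spearman rho of 0.752, with Benjamini-Hochberg adjusted permutation p = 0.00092 and p = 0.001 over the 4 genes examined. Without the 2 livers farthest from the median sum, r was 0.866. For Ryr1, Ryr3 and Fkbp1b, r was 0.149, 0.335 and -0.0157, with adjusted permutation p of 0.71, 0.298 and 0.949. Skeletal muscle markers, of which 2 of 4 were listed, summed to no more than 2.91 CPM in any liver.

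Vehicle mice give the comparison of the brain regions without exposure, and 4 of the 10 genes differed, all lower in the striatum than in the prefrontal cortex. They were the channel Ryr2, its partner Fkbp1b, the sensor Stim2 and the pump Atp2a2. The share of all 14514 tested genes that passed an adjusted p of 0.05 was 22.2%, and 11.2% passed as lower in the striatum, so the regions differed widely. At an unadjusted p under 0.05 the count was 7 of 10, beside 34.5% of all genes. The median log2 difference, striatum minus prefrontal cortex, was -0.09 over the 10 genes and 0.02 over all genes tested.

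Ryr2 was measured at 171, 211, 231 and 216 CPM in the prefrontal cortex of vehicle animals 8, 7, 4 and 3. In the striatum of the animals with the same numbers it was measured at 134, 111, 121 and 106 CPM. Every prefrontal cortex library lay above every striatum library. The share of all genes that separate fully between the regions was not computed. Such separation is therefore not read as a trait of Ryr2 or of the genes that follow. The log2 difference was -0.89 (SE 0.113, adjusted p = 0.000143, edgeR's quasi-likelihood test with Benjamini-Hochberg adjustment).

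Fkbp1b, whose protein binds to the Ryr2 channel in heart muscle, was measured at 20.5, 18.6, 15.5 and 21.7 CPM in the prefrontal cortex of the same animals and at 15.5, 8.20, 8.38 and 12.9 CPM in the striatum. The highest striatum value, in animal 8, lay just under the lowest prefrontal cortex value. The log2 difference was -0.84 (SE 0.199, adjusted p = 0.00801, edgeR). Without vehicle animal 7 the difference was -0.73 with adjusted p = 0.0508. The striatum library of animal 8 also held 1150 CPM of cortical neuron markers, against 122 to 434 CPM in the other vehicle striatum libraries, and without that animal the difference was -1.01 and still passed. Over the 21 striatum libraries Fkbp1b had r = 0.613 with these markers (rho 0.364, adjusted permutation p = 0.0201 and 0.254), and 0.31 without the 2 farthest libraries.

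Stim2, a sensor of store calcium, was measured at 77.4, 75.0, 79.5 and 83.8 CPM in the prefrontal cortex and at 70.8, 58.2, 57.8 and 67.7 CPM in the striatum. The ranges did not overlap, again without a share of all genes to set beside it. The log2 difference was -0.39 (SE 0.0963, adjusted p = 0.00993, edgeR), and the adjusted p was 0.0534 without animal 3 and 0.0587 without animal 7.

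Atp2a2 was measured at 1111, 1172, 1189 and 1152 CPM in the prefrontal cortex and at 1019, 1029, 1021 and 930 CPM in the striatum. Here too the groups did not overlap, and the share of all genes that did so was not computed. The pump's log2 difference was the smallest of the 4, at -0.29 (SE 0.085, adjusted p = 0.0253, edgeR). Its adjusted p was 0.153 without animal 3, 0.0539 without animal 4 and 0.111 without animal 7. Of the 4 genes, Ryr2 passed with each vehicle animal left out in turn, at log2 differences between -1.05 and -0.82.

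Ryr1 and Ryr3 had higher values in the striatum that did not pass among the 4 vehicle animals, with log2 differences of 0.60 (SE 0.261, adjusted p = 0.136) and 0.52 (SE 0.193, adjusted p = 0.0767) in edgeR. For Itpr1 the difference was -0.29 (SE 0.111, adjusted p = 0.0747). The remaining 3 genes had differences between 0.11 and 0.16. When all doses entered with the dose group as a covariate, 7 genes passed: Ryr1 at 0.63 (SE 0.128, adjusted p = 5.11e-05), Ryr3 at 0.72 (SE 0.13, adjusted p = 8.2e-06) and Itpr2 at 0.18 (SE 0.0785, adjusted p = 0.0425) were then higher in the striatum. Ryr1 and Ryr3 also passed without vehicle animal 8, at 0.87 (adjusted p = 0.0252) and 0.70 (adjusted p = 0.0178). That animal's striatum library was the one with the most cortical markers of the 4. Its prefrontal cortex library, left out with it, had the most striatal markers of the 21 in that region, 2871 CPM against 1078 to 1897 CPM in the other vehicle libraries, and the highest Ryr1 of the vehicle group, 36.6 CPM.

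The composition of the ryanodine receptor transcripts was also compared between the regions. Of the summed Ryr1, Ryr2 and Ryr3 level per kb, Ryr2 made up 62.6 to 79.8% in the 4 vehicle prefrontal cortex libraries and 40.0 to 57.7% in the 4 vehicle striatum libraries. The means were 71.2 ± 7.04% and 48.3 ± 8.22% (SD), a difference of -23.0 percentage points (exact permutation test, two-sided, p = 0.0286, the smallest that 4 against 4 allows). Over the 9 share comparisons made, the Benjamini-Hochberg adjusted value was 0.111. The Ryr3 share averaged 18.6 ± 4.04% in the prefrontal cortex and 33.2 ± 4.85% in striatal tissue, with no overlap (exact permutation p = 0.0286, adjusted 0.111). The Ryr1 share averaged 10.1 ± 3.36% and 18.5 ± 4.38% (exact permutation p = 0.0571, adjusted 0.111). None of the 3 passed after adjustment. Across all doses, the Ryr2 share was 58.6 to 80.7% in the 21 prefrontal cortex libraries and 32.9 to 57.7% in the 21 striatum libraries.

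**Figure D2:**
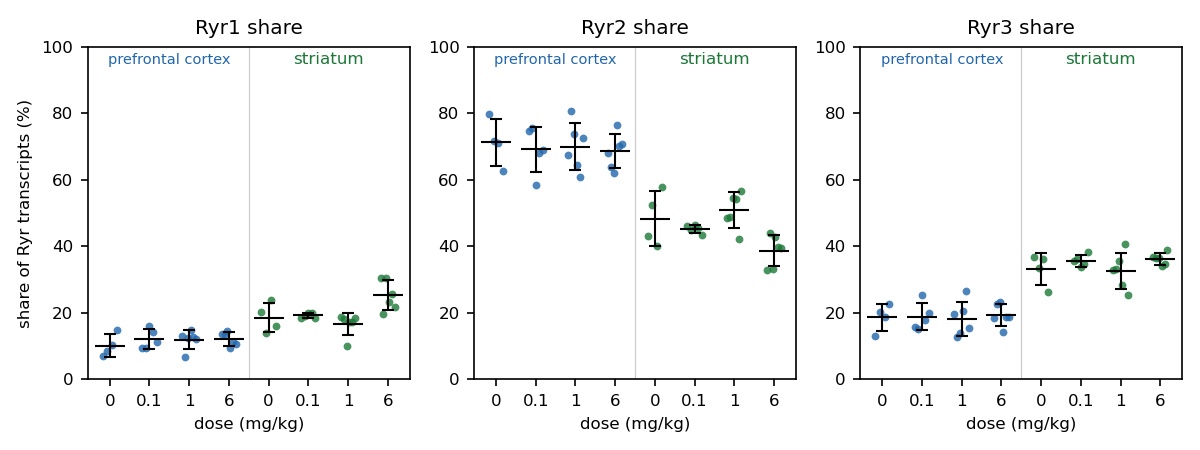
Share of Ryr1, Ryr2 and Ryr3 in their summed level per kb, in percent, by dose in mg/kg in the prefrontal cortex and the striatum; points are libraries, bars are mean ± SD of 4 to 6 libraries. The Ryr2 share lies at 58.6% or above in each prefrontal cortex library and at 57.7% or below in each striatum library.

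The IP3 receptors were far more one-sided. Itpr1 made up 97.2 ± 0.473% of the summed Itpr level per kb in the prefrontal cortex and 96.3 ± 0.906% in striatal tissue (SD, n = 21). In the liver, Itpr1 made up 53.8 ± 6.59% and Itpr2 40.8 ± 6.04% (SD, n = 20). Of the FKBP12 family level per kb, Fkbp1a made up 93.2 ± 1.27% in the prefrontal cortex and 96.0 ± 1.14% in striatal tissue (SD, n = 21).

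The wider calcium pathway was read from a list of 91 other genes, of which 84 were tested between the regions. In vehicle mice 8 of them were higher and 18 lower in the striatum, beside 1600 higher and 1629 lower of all 14514 genes tested (22.2% in all). Lower genes by the smallest p were Slc24a2, a sodium-calcium exchanger of the plasma membrane (-0.95, SE 0.103), and Homer1, a scaffold that ties IP3 receptors to metabotropic glutamate receptors (-0.70, SE 0.106). Higher genes were Rcn1, a calcium-binding protein of the store lumen (0.85, SE 0.119), Plce1, a phospholipase C (1.03, SE 0.174), and Trpc4, a cation channel (0.87, SE 0.156). The adjusted p of these 5 genes lay between 5.03e-05 for Slc24a2 and 0.0013 for Trpc4 in edgeR. Channel partners had 2 higher and 9 lower of 23 tested, the junction list 1 and 3 of 11, store-operated entry 1 and 2 of 12, and extrusion 1 and 3 of 8. Store pumps and luminal buffers had 1 higher and 0 lower of 11, IP3 production 2 and 1 of 12, and mitochondrial uptake 0 and 0 of 7.

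None of the 10 genes passed against vehicle in the prefrontal cortex at any dose. In edgeR, 0 of 10 passed at 6 mg/kg, at 1 mg/kg, at 0.1 mg/kg and for the slope over dose rank, and DESeq2 also called 0 of 10 in each, beside 0.182%, 0%, 0.00674% and 0.438% of all genes. Of all 14838 tested genes, 0% passed at each dose in edgeR and 0.0202% passed for the slope. At an unadjusted p under 0.05, the counts of the 10 genes were 0, 1 and 2 at 6, 1 and 0.1 mg/kg and 0 for the slope, beside 9.27%, 8.29%, 6.43% and 9.79% of all genes tested.

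Ryr2 was measured at 171, 211, 231 and 216 CPM in the vehicle prefrontal cortex, as above. At 0.1 mg/kg it was measured at 176, 114, 141, 121 and 203 CPM in animals 29, 28, 25, 24 and 23. The lowest, median and highest values were 113, 164 and 202 CPM at 1 mg/kg and 110, 189 and 215 CPM at 6 mg/kg. Exposed groups had lower means than vehicle with wide overlap. The log2 differences from vehicle were -0.46 (SE 0.203, adjusted p = 0.742), -0.37 (SE 0.195, adjusted p = 0.588) and -0.26 (SE 0.195, adjusted p = 0.714) at 0.1, 1 and 6 mg/kg in edgeR, and the 3 comparisons share the vehicle libraries. The length slope of a library, the Spearman correlation across genes between its deviation from the mean level of each gene and transcript length, is negative where long transcripts had low counts. It ranged from 0.136 to 0.423 in vehicle prefrontal cortex and had medians of -0.152, -0.156 and 0.208 at 0.1, 1 and 6 mg/kg. With it as a covariate, chosen after seeing the data, the Ryr2 difference at 6 mg/kg was -0.08 (SE 0.0733, adjusted p = 0.659), and a per-gene offset for GC and length gave -0.06 (SE 0.0854, adjusted p = 0.883). The GC slope, the same correlation with the GC content of the transcript, gave -0.43 as a covariate (SE 0.159, adjusted p = 0.14).

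Ryr1 and Ryr3 showed no passing difference either. Ryr1 was measured at 36.6, 27.98, 24.6 and 17.5 CPM in vehicle, and its lowest, median and highest values at 6 mg/kg were 12.5, 28.4 and 39.4 CPM, a log2 difference of 0.10 (SE 0.283). Ryr3 was measured at 56.8, 51.1, 59.8 and 32.7 CPM in vehicle and between 18.8 and 66.1 CPM at 6 mg/kg, with a median of 46.4 and a log2 difference of -0.13 (SE 0.318). With 0 of 14838 genes passing at 6 mg/kg, differences well above these standard errors could also have gone undetected for Ryr1 or Ryr3.

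The other genes did not pass in the prefrontal cortex either. Itpr1 had a log2 difference of -0.30 at 1 mg/kg (SE 0.142, adjusted p = 0.588, edgeR), with 856 to 989 CPM in vehicle and 592 to 929 CPM at that dose. For Itpr2 it was -0.39 at 0.1 mg/kg (SE 0.174, adjusted p = 0.742), with 17.6 to 24.7 CPM in vehicle and 9.61 to 17.8 CPM at that dose. At 6 mg/kg the other differences ranged from -0.23 for Itpr1 to 0.12 for Stim2, and Atp2a2 stood at 0.00 (SE 0.108).

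**Figure D3:**
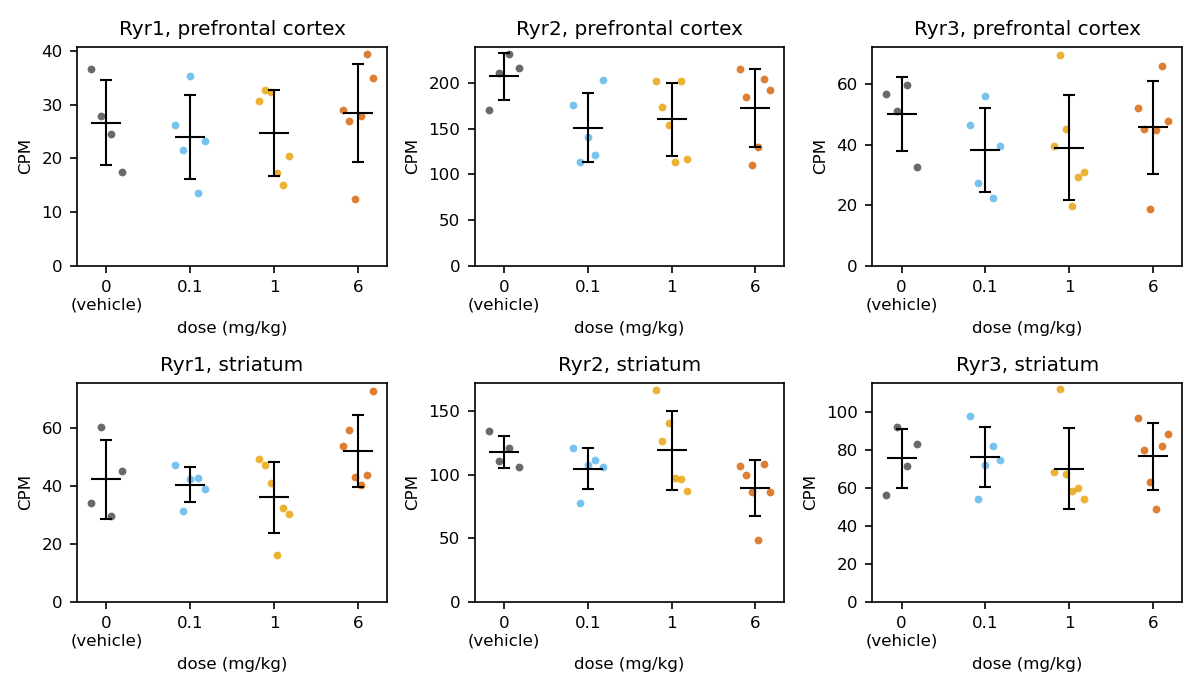
Ryr1, Ryr2 and Ryr3 in CPM by dose in mg/kg, in the prefrontal cortex (top row) and the striatum (bottom row); points are libraries, bars are mean ± SD of 4 to 6 libraries. Every exposed group overlaps the vehicle group, and the lowest Ryr2 value in the striatum, 48.4 CPM, is in the 6 mg/kg group.

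Of the 83 tested pathway genes in the prefrontal cortex, 0 passed at 6 mg/kg in edgeR, with 8 at an unadjusted p under 0.05, beside 9.27% of all genes. The 2 with the smallest p were Orai2, a subunit of store-operated entry channels, at -0.30 (SE 0.0824, adjusted p = 0.292), and Slc8a2, a sodium-calcium exchanger, at -0.26 (SE 0.0812, adjusted p = 0.333). Of the 83, 36 had positive and 47 negative log2 differences, and medians of the 7 sublists ranged from -0.15 for 10 genes of the membrane junction to 0.07 for 11 genes of store pumps and luminal buffers, beside 0.00 over all genes tested.

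In the striatum, 0 of the 10 genes passed in edgeR at 6, 1 or 0.1 mg/kg or for the slope over dose rank, and DESeq2 called 0 in each, beside 0.172%, 0.0397%, 0.00661% and 0.0926% of all genes. Of all 15118 tested genes, 0% passed in each of these comparisons in edgeR. At an unadjusted p under 0.05, 2 of the 10 genes, Ryr2 and Stim2, were lower at 6 mg/kg, where 15.7% of all genes tested reached that level. None of the 10 did so at 1 or 0.1 mg/kg or for the slope, beside 7.36%, 2.53% and 13.1% of all genes. With the slope taken over mg/kg instead of dose rank, 1 gene passed in edgeR, Stim2, at -0.05 per mg/kg (SE 0.0149, adjusted p = 0.0273), beside 12.3% of all genes.

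Ryr2 was measured at 134, 111, 121 and 106 CPM in vehicle striatum and had a lowest, median and highest value of 48.4, 93.2 and 108 CPM at 6 mg/kg. The groups overlapped, since animals 58 and 53 at 6 mg/kg lay above vehicle animal 3. The log2 difference was -0.40 (SE 0.187, adjusted p = 0.306, edgeR). At 0.1 mg/kg the 5 values lay between 78.0 and 121 CPM and at 1 mg/kg between 86.9 and 166 CPM, with log2 differences of -0.17 (SE 0.195) and 0.01 (SE 0.188).

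Striatum libraries at 6 mg/kg also differed in a measure taken from the counts themselves, whose source was not tested. The length slope ranged from -0.611 to 0.0425 at 6 mg/kg and from -0.0745 to 0.316 in vehicle, and the library with -0.611, of animal 54, was the one with 48.4 CPM of Ryr2. With the length slope as a covariate, chosen after seeing the data, the Ryr2 difference at 6 mg/kg was -0.02 (SE 0.149, adjusted p = 0.997). A per-gene offset for GC and length gave -0.21 (SE 0.122, adjusted p = 0.596). Over all alternatives to the main fit the difference ranged from -0.503 to -0.015, so some made it larger, and it passed in none.

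Stim2 was measured at 70.8, 58.2, 57.8 and 67.7 CPM in vehicle striatum and had a lowest, median and highest value of 45.8, 57.0 and 60.2 CPM at 6 mg/kg. The groups overlapped, since animals 56, 55 and 52 at 6 mg/kg lay above the lowest vehicle library, and the log2 difference was -0.21 (SE 0.1, adjusted p = 0.308, edgeR). At 1 mg/kg the values lay between 62.9 and 84.5 CPM, with a difference of 0.19 (SE 0.101, adjusted p = 0.698). The GC slope ranged from 0.281 to 0.419 in the striatum at 6 mg/kg and from -0.398 to 0.383 in vehicle, and Stim2 had r = -0.615 with it over the 21 libraries (rho -0.642, adjusted permutation p = 0.0174 and 0.0142), with -0.631 without the 2 farthest libraries and -0.0726 within dose groups. With the GC slope as a covariate the Stim2 difference at 6 mg/kg was -0.20 (SE 0.113, adjusted p = 0.483), and with the offset for GC and length it was -0.11 (SE 0.1, adjusted p = 0.743). Stim2 also had r = 0.555 with the summed cortical markers in the striatum (rho 0.621, adjusted permutation p = 0.0413 and 0.0223), with 0.526 without the 2 farthest libraries and 0.465 within dose groups. The part of these markers in the Stim2 values was not tested.

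Ryr1 was measured at 34.1, 60.3, 29.6 and 45.3 CPM in vehicle striatum and had a lowest, median and highest value of 40.5, 48.9 and 72.8 CPM at 6 mg/kg, a log2 difference of 0.31 (SE 0.241). Ryr3 lay between 56.1 and 92.2 CPM in vehicle and between 48.9 and 96.9 CPM at 6 mg/kg, with a difference of 0.02 (SE 0.202). The other 6 genes had differences between -0.26 for Itpr1 and 0.06 for Itpr3.

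In shares of the summed ryanodine receptor level, Ryr2 averaged 38.7 ± 4.68% at 6 mg/kg (SD, n = 6) and 48.3 ± 8.22% in vehicle striatum (SD, n = 4). Ryr1 averaged 25.2 ± 4.51% and 18.5 ± 4.38% in these groups. Exact permutation tests gave p = 0.0476 for Ryr2 and p = 0.0619 for Ryr1, and both had an adjusted value of 0.111 over the 9 comparisons, so neither passed. In the prefrontal cortex the Ryr2 share was 68.6 ± 5.14% at 6 mg/kg (SD, n = 6) and 71.2 ± 7.04% in vehicle (SD, n = 4; exact permutation p = 0.471).

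None of the 87 tested pathway genes passed in the striatum at 6 mg/kg in edgeR, with 12 at an unadjusted p under 0.05, beside 15.7% of all genes. Those with the smallest p were Atp2b4, a plasma membrane calcium pump, at -0.56 (SE 0.202, adjusted p = 0.226), and Pde4d, a cyclic AMP phosphodiesterase found in ryanodine receptor complexes, at -0.47 (SE 0.171, adjusted p = 0.227). The median over the pathway list was 0.00 and that over all genes tested was 0.01.

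The liver was the tissue with differences closest to the threshold, in the pump Atp2a2 and in Fkbp1a. At 6 mg/kg 0 of the 6 tested genes passed in edgeR, beside 2.8% of 12968 genes, and 3 of 6 had an unadjusted p under 0.05, beside 24.2%. DESeq2 called 2 of the 6, Atp2a2 and Fkbp1a, beside 8.78% of all genes. Both also had groups that did not overlap, which 6.76% of all genes tested had. The slope over dose rank passed for 1 gene, Atp2a2, beside 4.81% of all genes tested, of which 1.96% were downward.

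Atp2a2, which refills the store, was measured at 119, 141, 157 and 166 CPM in vehicle livers of animals 8, 7, 4 and 3 and at 167, 167, 137 and 111 CPM at 0.1 mg/kg. The lowest, median and highest values were 79.4, 118 and 131 CPM at 1 mg/kg and 83.7, 94.6 and 119 CPM at 6 mg/kg. The highest 6 mg/kg library, of animal 55, lay just under the lowest vehicle library. The log2 difference at 6 mg/kg was -0.58 (SE 0.167, adjusted p = 0.0578, edgeR). It passed without 6 mg/kg animal 55 or 56 (adjusted p = 0.0298 and 0.0469) and with the length slope as a covariate (adjusted p = 0.0229). In DESeq2 its adjusted p was 0.0169. The 6 mg/kg difference did not pass in 15 of 19 alternatives, and with a replicate left out it lay between -0.667 and -0.516. At 1 mg/kg the difference was -0.40 (SE 0.168, adjusted p = 0.565). Per step of dose rank, Atp2a2 fell by 0.22 on the log2 scale (SE 0.0533, adjusted p = 0.0266, edgeR). That call was lost without any of 4 libraries, those of 6 mg/kg animals 58 and 52 and vehicle animals 4 and 3, each of which left 0 genes of the 6 passing. It was also lost when the slope was taken over mg/kg, at -0.08 per mg/kg (SE 0.0245, adjusted p = 0.0534), where 0 of the 6 passed beside 3.72% of all genes.

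Fkbp1a was measured at 68.7, 60.4, 68.95 and 63.8 CPM in vehicle livers and had a lowest, median and highest value of 33.7, 45.1 and 59.2 CPM at 6 mg/kg. All 6 exposed livers lay below the 4 vehicle livers. The log2 difference was -0.50 (SE 0.166, adjusted p = 0.0859, edgeR) and 0.0372 or 0.0376 was the adjusted p without 6 mg/kg animal 55 or 56. It did not pass in 16 of 19 alternatives, and with a replicate left out it lay between -0.589 and -0.428. At 1 and 0.1 mg/kg the differences were -0.13 (SE 0.167) and -0.09 (SE 0.183).

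Itpr3, the IP3 receptor of epithelia such as bile ducts, was a gene of 12 to 42 counts per liver library. It was measured at 1.43, 2.22, 1.63 and 1.94 CPM in vehicle and at 2.31, 2.64, 2.42 and 2.78 CPM at 0.1 mg/kg, with no overlap, beside 4.13% of all genes tested without overlap in that comparison. The lowest, median and highest values were 1.92, 2.61 and 4.43 CPM at 1 mg/kg and 1.77, 2.92 and 4.92 CPM at 6 mg/kg, so the groups at the higher doses overlapped vehicle. Its log2 differences from the shared vehicle libraries were 0.49 (SE 0.352, adjusted p = 0.994), 0.73 (SE 0.326, adjusted p = 0.573) and 0.77 (SE 0.325, adjusted p = 0.157) at 0.1, 1 and 6 mg/kg in edgeR. Cholangiocyte markers summed to 7.46 to 10.6 CPM in vehicle livers and 4.23 to 9.37 CPM at 6 mg/kg, and their part in the Itpr3 values was not tested.

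Itpr1, Itpr2 and Stim2 had log2 differences of 0.00 (SE 0.233), 0.06 (SE 0.169) and 0.05 (SE 0.203) at 6 mg/kg in the liver. Neither 1 nor 0.1 mg/kg gave a passing gene among the 6 in edgeR or DESeq2, beside 0% and 0.0154% of all genes in edgeR and 0.162% and 0.0925% in DESeq2. At an unadjusted p under 0.05 the counts were 2 and 0 of 6, beside 8.44% and 4.1%.

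**Figure D4:**
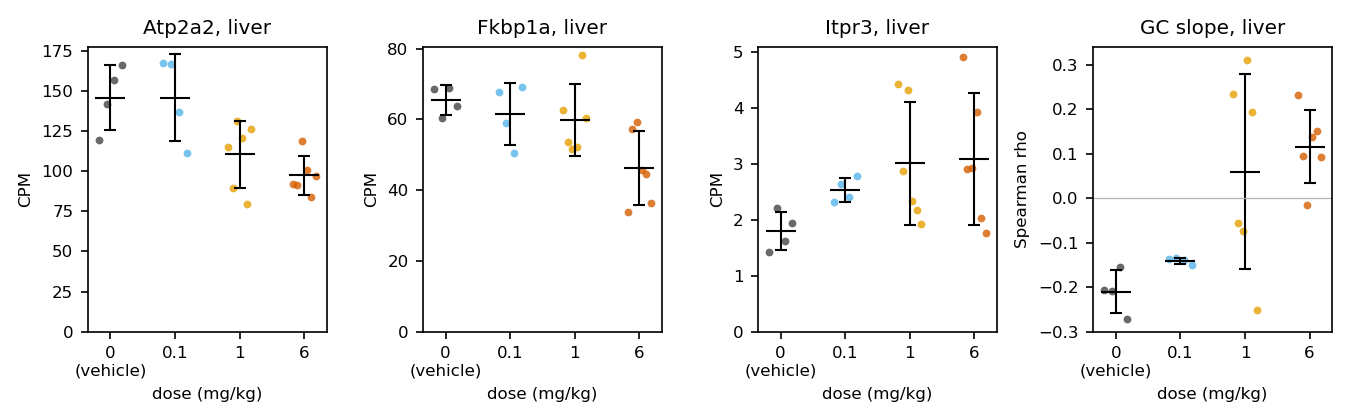
Atp2a2, Fkbp1a and Itpr3 in CPM, and the GC slope of each library (a Spearman rho), by dose in mg/kg in the liver; points are libraries, bars are mean ± SD of 4 to 6 libraries. Atp2a2 and Fkbp1a are lower in all 6 livers at 6 mg/kg than in the 4 vehicle livers, and the GC slopes of these groups do not overlap either.

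Macrophage markers were summed in the same livers. A list of 4 genes that mark microglia, the macrophages of the brain, summed to 31.9 to 41.4 CPM in vehicle and 43.8 to 71.4 CPM at 6 mg/kg, with no overlap. Among single genes tested, 6.76% had groups without overlap in this comparison. For 3 markers of Kupffer cells, the resident macrophages of the liver, the ranges overlapped, at 86.4 to 151 CPM in vehicle and 121 to 265 CPM at 6 mg/kg, with medians of 126 and 188 CPM. Hepatocyte markers overlapped, at 99262 to 114990 CPM in vehicle and 77081 to 131150 CPM at 6 mg/kg. The part of macrophages in the Atp2a2, Fkbp1a and Itpr3 values was not tested.

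A measure taken from the counts moved with dose in the liver as well, and its source was not tested. The GC slope ranged from -0.271 to -0.154 in vehicle and from -0.0161 to 0.232 at 6 mg/kg. With the GC slope as a covariate, chosen after seeing the data, the difference at 6 mg/kg was -0.44 for Atp2a2 (SE 0.225, adjusted p = 0.515), -0.47 for Fkbp1a (SE 0.229, adjusted p = 0.487) and 0.54 for Itpr3 (SE 0.454, adjusted p = 0.698), and no slope over dose rank passed. The standard errors were larger than without the covariate. The GC slopes of vehicle and 6 mg/kg livers did not overlap, so their part and that of dose cannot be told apart. With an offset for GC content and length the differences were -0.56 for Atp2a2 (adjusted p = 0.0653), -0.61 for Fkbp1a (adjusted p = 0.0857) and 0.41 for Itpr3 (adjusted p = 0.441).

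Of 64 tested pathway genes in the liver, 0 rose and 2 fell at 6 mg/kg, a share near the 2.8% of all genes that passed. The 2 were Hspa5, which encodes the luminal chaperone BiP, at -1.21 (SE 0.267, adjusted p = 0.0237), and Calm2, a calmodulin gene, at -0.84 (SE 0.203, adjusted p = 0.0333). Both also passed for the slope, at -0.40 (SE 0.0966) for Hspa5 and -0.25 (SE 0.0656) for Calm2. With the GC slope as a covariate the 6 mg/kg differences were -1.10 for Hspa5 (SE 0.376, adjusted p = 0.349) and -0.78 for Calm2 (SE 0.281, adjusted p = 0.367), and neither passed. Neither passed at 6 mg/kg without vehicle animal 3, 4 or 7 or 6 mg/kg animal 58 (adjusted p = 0.0629 to 0.127), nor with the 6 mg/kg and vehicle libraries alone (adjusted p = 0.0836 and 0.0841), and Calm2 did not pass with the offset (adjusted p = 0.14) or without vehicle animal 8 or 6 mg/kg animal 52, 53 or 54. Of the 64, 26 had positive and 38 negative differences, with 4 higher and 13 lower at an unadjusted p under 0.05, beside 24.2% of all genes at that level in either direction. The median of the list was -0.22, beside 0.02 over all genes tested. Over its 7 sublists the medians ranged from -0.47 for 7 genes of store-operated entry to 0.42 for 4 genes of the membrane junction.

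Whether the effect of 6 mg/kg differed between tissues was tested as an interaction, over the 10 genes for the pair of brain regions and over the 6 genes that were also tested within the liver for the other pairs. Ryr1, Ryr2, Ryr3 and Fkbp1b entered the liver pairs through their brain counts and are not counted there. In edgeR 0 of 10 genes passed between the brain regions, 0 of 6 between liver and prefrontal cortex and 0 of 6 between liver and striatum. The shares of all genes that passed were 0% for the pair of brain regions, 0.899% for liver with prefrontal cortex and 0.0277% for liver with striatum. DESeq2 called 0 of 10, 2 of 6 (Atp2a2 and Fkbp1a) and 0 of 6, beside 0%, 6.47% and 0.927% of all genes. At an unadjusted p under 0.05 in edgeR the counts were 1 of 10, 3 of 6 and 0 of 6, beside 6.43%, 20% and 14.3% of all genes. The effect on Stim2 was lower in the striatum than in the prefrontal cortex by a log2 value of -0.34 (SE 0.143, adjusted p = 0.746). Between liver and prefrontal cortex, the effects differed by -0.60 for Atp2a2 (SE 0.204, adjusted p = 0.119), -0.62 for Fkbp1a (SE 0.217, adjusted p = 0.132) and 0.83 for Itpr3 (SE 0.356, adjusted p = 0.203). In edgeR Atp2a2 passed when animal 55 was left out, so whether its effect differs between these tissues depends on the tool and on that animal.

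Ryanodine receptor transcripts varied widely among the libraries of a region, all doses included. In the prefrontal cortex the highest library exceeded the lowest by 3.16 fold for Ryr1, 2.1 fold for Ryr2 and 3.72 fold for Ryr3. In the striatum Ryr3 ranged over 2.3 fold. The wider striatal ranges of Ryr1 and Ryr2 each rested on 1 library: Ryr1 had 16.05 CPM in animal 45 at 1 mg/kg and 29.6 to 72.8 CPM in the other 20 libraries, and Ryr2 had 48.4 CPM in animal 54 at 6 mg/kg and 78.0 to 166 CPM in the other 20. How the genes varied together was described over the 21 libraries of each region in log2 CPM, with 90 pairs of genes and 80 pairs of a gene and a library measure.

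Ryr1 and Ryr3 varied together in both regions. The Pearson r of Ryr1 with Ryr3 was 0.884 in the prefrontal cortex (rho 0.84, adjusted permutation p = 0.000225 and 0.00045) and 0.628 in striatal tissue (rho 0.756, adjusted permutation p = 0.0128 and 0.0019). Without the 2 libraries farthest from the median of Ryr1, r was 0.818 and 0.673, and within dose groups it was 0.896 and 0.651. Ryr1 with Ryr2 gave r = 0.416 in the prefrontal cortex (adjusted permutation p = 0.165) and 0.103 in striatal tissue (adjusted permutation p = 0.723). Ryr2 with Ryr3 gave r = 0.637 (rho 0.526, adjusted permutation p = 0.014 and 0.084) and 0.443 (adjusted permutation p = 0.131), and 0.465 and 0.359 without the 2 farthest libraries.

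Ryr2 followed the length slope, a measure taken across the genes tested. The share of all genes that follow it as closely was not computed. In the prefrontal cortex r was 0.94 (rho 0.918, adjusted permutation p = 0.0002 for each), with 0.918 without the 2 farthest libraries and 0.948 within dose groups. In the striatum r was 0.836 (rho 0.688, adjusted permutation p = 0.00032 and 0.00664), with 0.65 without the 2 farthest libraries and 0.784 within dose groups. The transcripts of Ryr1, Ryr2 and Ryr3 have 15358, 16814 and 15468 bases. For Ryr1, r was 0.454 in the prefrontal cortex (adjusted permutation p = 0.0978) and -0.147 in the striatum (adjusted permutation p = 0.681). For Ryr3 the values were 0.639 (adjusted permutation p = 0.0151) and 0.368 (adjusted permutation p = 0.221).

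Other genes followed it as well. The length slope had r = 0.915 with Itpr1 and 0.924 with Atp2a2, and r = -0.881 with Fkbp1a in the prefrontal cortex (adjusted permutation p = 0.0002 for each). In the striatum r was 0.782 for Atp2a2 (adjusted permutation p = 0.00409), 0.645 for Itpr1 (adjusted permutation p = 0.0268) and 0.00239 for Fkbp1a (adjusted permutation p = 0.999). Without the 2 farthest libraries the striatal values were 0.583 for Atp2a2 and 0.25 for Itpr1. Itpr2 had 0.532 in the prefrontal cortex and 0.573 in striatal tissue (adjusted permutation p = 0.0413 for each), and 0.545 and 0.217 without the 2 farthest libraries. In the prefrontal cortex the genes also varied with each other: Ryr2 had r = 0.852 with Itpr1, 0.847 with Atp2a2 and -0.89 with Fkbp1a. In all, 10 pairs of genes had a positive and 4 a negative r that passed in the prefrontal cortex, and 8 and 0 passed in the striatum. How often pairs of other genes reach this was not computed, so the counts are not read as a trait of these genes. The part of the length slope in the pairs given here was not tested.

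Ryr1 followed the markers of striatal projection neurons, a list of 7 genes that includes Drd1, Drd2 and Penk. Their summed level and Ryr1 had r = 0.708 in the prefrontal cortex (rho 0.73, adjusted permutation p = 0.0039 and 0.00307) and 0.709 in striatal tissue (rho 0.706, adjusted permutation p = 0.000933 and 0.005). Without the 2 farthest libraries r was 0.711 and 0.84, and within dose groups 0.745 and 0.604. Ryr3 had r = 0.638 with the same sum in the striatum (rho 0.712, adjusted permutation p = 0.016 and 0.005), and 0.486 in the prefrontal cortex (rho 0.577, adjusted permutation p = 0.069 and 0.0406). At 6 mg/kg the striatal sum ranged from 3535 to 6278 CPM and in vehicle striatum from 2896 to 6164 CPM. Its part in the Ryr1 values was not tested, and the share of all genes with such an r to the sum was not computed.

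**Figure D5:**
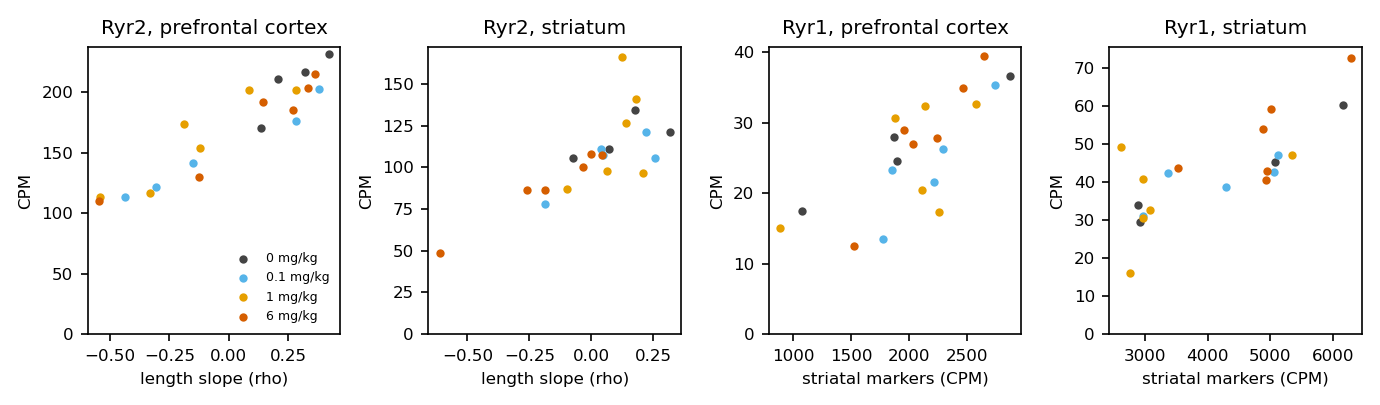
Ryr2 in CPM against the length slope of each library (a Spearman rho), and Ryr1 in CPM against the summed CPM of 7 striatal projection neuron markers, in the prefrontal cortex and the striatum; points are the 21 libraries of a region, coloured by dose. Ryr2 rises with the length slope (r = 0.94 and 0.836 on the log2 scale) and Ryr1 with the striatal markers (r = 0.708 and 0.709 on the log2 scale).

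The genes whose log2 CPM was most like that of each receptor over 21 libraries were named by their Pearson r among all genes tested. In the prefrontal cortex Ryr1 was most like Gnal, a G protein subunit (0.915), Drd1, the D1 dopamine receptor (0.898), and D430036J16Rik (0.891). Ryr2 there was most like Pclo and Prkcb (0.963 each), a presynaptic scaffold and a protein kinase C, and Ncor1 (0.96), a corepressor. Ryr3 was most like Akap9 (0.914), Mdn1 (0.913) and D430036J16Rik (0.899). In the striatum the closest were Speg (0.933), Kcnt1 (0.902) and Sh2d5 (0.89) for Ryr1, and 4933409K07Rik (0.964), Csmd1 (0.953) and Nav3 (0.953) for Ryr2. For Ryr3 they were Smpd3 (0.86), Pxdn (0.847) and Gpr83 (0.845). Libraries share depth and composition, so these values describe likeness alone.

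Animals with the same number were compared across the brain regions. Over the 21 numbers, the Pearson r between regions was 0.388 for Ryr1, 0.45 for Ryr2 and 0.452 for Ryr3, with adjusted permutation p of 0.167, 0.121 and 0.121 over 12 measures. None of the 10 genes passed, with adjusted values of 0.121 or more by Pearson's r and 0.0917 or more by Spearman's rho. The highest r were 0.497 for Itpr3 and 0.482 for Itpr1.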

How the data were processed

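RNA was sequenced from 62 libraries. For each tissue the authors deposited 1 count table, with whole numbers per Entrez identifier; 0 columns lacked a sample. Per the submitters' processing notes, HISAT2, FastQC and build mm10 were used; the counting tool, annotation and use of strand were not given in the sources used here, and genes overlapping on opposite strands cannot be told apart. Per the labels' protocols, messenger RNA was enriched by poly(A) capture or ribosomal RNA removal, without saying which. Every listed gene had at least 10 counts in total. Symbols, positions and promoters came from RefSeq GRCm38.p6, transcript length and GC content from the longest GENCODE transcript (99.6% of tested genes in each tissue).

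Groups followed the treatment labels. The test was edgeR 4.0.16 under R 4.3.3 (filterByExpr, trimmed mean of M values, robust quasi-likelihood fit over all doses of a tissue); p-values were adjusted by Benjamini-Hochberg over all genes tested, with 0.05 as threshold, and standard errors were the size of the log2 difference over the root of its F statistic. The dose trend was a slope over dose rank. For log2 CPM the prior count was 2. The fits were tested on simulated data. Correlations used 100000 permutations, share comparisons exact two-sided permutation tests, in Python 3.11.15 with scipy 1.17.1. Library pairs of a group differed by at least 12.9, 4.84 and 2.94 chi-square per degree of freedom in liver, prefrontal cortex and striatum, so each counted as 1 replicate. This sets the spread against counting error alone and cannot show that libraries came from separate mice.

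The 10 genes, the pathway list (91 matched symbols), the marker lists and the tests were chosen with earlier results of these data known. All 10 genes are named; full statistics are given for those that passed and, as not passing, for those with unadjusted p under 0.05. Of pathway genes, up to 6 that passed per comparison are named by smallest p, or 2 where none passed at 6 mg/kg; 1 gene that this rule names is not reported here. The 3 genes most like each ryanodine receptor were taken by Pearson's r. Alternatives were DESeq2 1.42.0, median-ratio size factors, 2 other filters, fewer libraries, 1 surrogate variable (sva 3.50.0), a GC and length offset, dose in mg/kg for the slope, a block of animal numbers and each replicate left out; GC and length slopes as covariates, trend leave-outs and the alternatives for shares were added after seeing the data.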

Additional observations from a re-analysis of the deposited data

Results flagged for a closer look

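In 6 of the 104 groups of 4 to 6 libraries examined for these genes, the highest or lowest library stood apart from the rest by Dixon's criterion, and chance flags about 1 in 20 groups, or 5.2 of 104. Striatum animal 54 at 6 mg/kg was the lowest for 2 genes. Its Ryr2 level was 48.4 CPM, with 86.3 to 108 CPM in the other 5 libraries, and its Atp2a2 level was 546 CPM, with 897 to 1028 CPM in the others. This library had the lowest length slope of the striatum, -0.611. Atp2a2 was 930 CPM in the striatum of vehicle animal 3 and 1019 to 1029 CPM in the other 3. Ryr3 was 112 CPM in the striatum of animal 48 at 1 mg/kg and 54.2 to 68.3 CPM in the others. In the liver, Itpr2 was 22.2 CPM in animal 23 at 0.1 mg/kg and 31.5 to 33.0 CPM in the others, and Stim2 was 28.6 CPM in animal 41 at 1 mg/kg and 11.9 to 16.6 CPM in the others.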

How the results depend on the processing

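Of 305 alternative counts of passing genes, 285 stayed within 1.5 times the main count, and of 594 alternative fold changes, 517 kept direction and side of the threshold, 15 came to pass and 6 no longer passed. In the liver at 6 mg/kg, 2 genes passed with DESeq2, 1 with the length slope as covariate and 0 to 2 with a replicate left out. For the liver slope, 2 passed with DESeq2, 0 over mg/kg, 0 with the GC slope as covariate and 0 to 2 with a replicate left out. The striatum slope over mg/kg passed for 1 gene, Stim2. Between regions in vehicle mice, 7 passed with all doses and 2 to 6 with an animal left out. The liver and prefrontal cortex interaction gave 2 with DESeq2 and 0 to 1 with an animal left out. Signs changed in 56 alternatives for fold changes, none passing. At 6 mg/kg in the liver, Itpr1 had 0.002 with median-ratio size factors, the count filter and DESeq2, 0.005 with the dose and vehicle libraries alone, 0.118 with 1 surrogate variable and 0.344 with the GC slope, and Itpr2 -0.03 with the offset. In the prefrontal cortex the offset gave 0.047, 0.117 and 0.111 for Ryr3, Itpr2 and Itpr3, the length slope 0.011 and 0.022 for Ryr3 and Itpr2, and the GC slope -0.095 for Atp2a2. In the striatum Fkbp1b had -0.001 with median-ratio size factors and DESeq2, -0.171 with the offset, -0.309 with the GC slope and -0.097 with the length slope. Itpr2 there had 0.132, 0.034 and 0.188 with these 3, the length slope gave 0.053 and 0.064 for Itpr1 and Atp2a2, and the surrogate variable 0.002 for Fkbp1a. With a replicate left out, values lay on both sides of 0 for Itpr1 (-0.13 to 0.118) and Itpr2 (-0.034 to 0.162) in the liver, for Ryr1 (-0.06 to 0.293), Ryr3 (-0.285 to 0.033), Itpr2 (-0.195 to 0.065), Itpr3 (-0.154 to 0.006) and Atp2a2 (-0.024 to 0.066) in the prefrontal cortex, for Ryr3 (-0.103 to 0.125), Fkbp1b (-0.121 to 0.195), Itpr2 (-0.161 to 0.035) and Itpr3 (-0.084 to 0.164) in the striatum, and for Itpr2 between regions (-0.016 to 0.195). The causes were not tested. Over all genes, 363 passed in the liver at 6 mg/kg and 1 to 1302 under the alternatives, 624 and 3 to 1317 for the liver slope, and 3229 and 1731 to 8112 between regions. From 0, 0 and 0 for the 6 mg/kg prefrontal cortex, 6 mg/kg striatum and striatum slope comparisons the counts reached 141, 26 and 1862, from 3 for the prefrontal cortex slope 174, and from 129 and 4 for the liver interactions with prefrontal cortex and striatum 928 and 134. Low counts limit Itpr3 in the liver and leave the ryanodine receptors untested within the liver.

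Animal numbers recur across tissues, but the labels do not say that they mark a mouse. Deviations of same-numbered libraries correlated by 0.113 on average between striatum and prefrontal cortex (12 of 21 above 0.1), and by 0.00635 and 0.0052 for liver with either region. With the replicate block, 4 genes passed between regions in vehicle mice and 0 in each interaction, as without it.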

Other observations

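At 0.1 mg/kg 0 of the tested genes of store pumps and luminal buffers passed in edgeR in either brain region. Of 11 in the prefrontal cortex, 8 had positive and 3 negative log2 differences from vehicle, and of 13 in the striatum 9 and 4. At an unadjusted p under 0.05, 3 were higher and 0 lower in the prefrontal cortex, and 3 higher and 1 lower in the striatum, beside 6.43% and 2.53% of all genes in either direction. At 1 mg/kg the counts at that level were 0 of 11 and 2 of 13, and at 6 mg/kg 1 of 11 and 1 of 13, beside 8.29%, 7.36%, 9.27% and 15.7% of all genes in the same order. The sublist, the dose and the 3 genes that follow were chosen after their values were seen. At 0.1 mg/kg this sublist had the most genes at that level of the 7 sublists in both regions. The gene that was lower in the striatum is not among the 3. Hspa5 had 0.55 in the prefrontal cortex (SE 0.121, adjusted p = 0.584) and 0.51 in the striatum (SE 0.111, adjusted p = 1). For Calr, which encodes calreticulin, the values were 0.34 (SE 0.096) and 0.31 (SE 0.11), and for Pdia3, a disulfide isomerase, 0.25 (SE 0.0868) and 0.29 (SE 0.101). In the liver Hspa5 fell by 1.21 on the log2 scale at 6 mg/kg, a different dose. That call was lost under several alternatives, as given above. Atp2a1, which encodes the pump of fast skeletal muscle, had a difference of 2.16 at 1 mg/kg in the striatum (SE 0.547, adjusted p = 0.561).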
